A study of Rattus norvegicus with 18 samples.

Results

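Dbp, Tef and Nr1d1 are genes whose transcripts cycle over the day under control of the circadian clock. They were taken by Ensembl ID, ENSRNOG00000021027 for Dbp, ENSRNOG00000019383 for Tef and ENSRNOG00000009329 for Nr1d1, and make up 3 of the 30562 genes in the count table. Each ID lay on the chromosome stated for it, and all 3 passed the filter on low counts. They were chosen with results of these libraries known. Dbp was selected on its level and fold changes between the groups, and the others were added as clock outputs with the same results in view. Levels and fold changes between groups are therefore descriptions, without a test.

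RNA was sequenced from intestinal tissue of wild type rats of the outbred Sprague-Dawley stock, with 6 libraries in each of 3 groups. Control rats were untreated, irradiated rats received 10 Gy of X-rays once, and irradiated plus formula rats were given Changbing Formula after that dose, a treatment the labels name without giving its makeup, dose or schedule. The labels give no intestinal segment, sex, age or time after irradiation, and although they mention a light/dark cycle in housing they give no hour of collection for any library, so a difference in that hour and a difference in treatment cannot be told apart. The free-text description calls every sample untreated, and groups were taken from the titles, with which the treatment field agrees. The labelled tissue could not be checked against markers, because 0 IDs of the count table matched the gene table used for names.

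In the clock, the activator BMAL1 pairs with CLOCK and binds E-box elements to drive transcription of many genes, among them Dbp, Tef and Nr1d1. DBP and TEF are related transcription factors of the PAR bZIP family that carry the rhythm to genes with D-box elements, including enzymes of detoxification. NR1D1, also called REV-ERB alpha, is a nuclear receptor that represses transcription at ROR elements, including those of the Bmal1 gene, so that Bmal1 transcripts and the transcripts of these outputs peak at nearly opposite times of day in many tissues. Bmal1, ENSRNOG00000014448, was therefore set beside them.

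Promoter sequences are shown because the outputs and Bmal1 are known to be driven through different elements. Whether such elements bear on the group differences was not tested. RefSeq windows on GRCr8, from 250 bases before to 50 after a gene start, matched all 4 symbols, with 2 starts for Nr1d1. Capitals mark matches, on either strand, to CACGTG (E-box), CACGTT (an E-box variant), TTANGTAA (D-box), AGGTCA (the core of a ROR element) or TGACGTCA (a cyclic AMP response element). No matches overlapped.
Dbp, chr1:105312006-105312305, forward strand: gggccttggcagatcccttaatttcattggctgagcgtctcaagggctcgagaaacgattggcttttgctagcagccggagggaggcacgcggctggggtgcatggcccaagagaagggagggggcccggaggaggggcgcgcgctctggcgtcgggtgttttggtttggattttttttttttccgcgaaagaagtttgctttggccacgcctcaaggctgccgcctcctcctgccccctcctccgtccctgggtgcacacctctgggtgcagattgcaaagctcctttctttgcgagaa
Tef, chr7:115206577-115206876, forward strand: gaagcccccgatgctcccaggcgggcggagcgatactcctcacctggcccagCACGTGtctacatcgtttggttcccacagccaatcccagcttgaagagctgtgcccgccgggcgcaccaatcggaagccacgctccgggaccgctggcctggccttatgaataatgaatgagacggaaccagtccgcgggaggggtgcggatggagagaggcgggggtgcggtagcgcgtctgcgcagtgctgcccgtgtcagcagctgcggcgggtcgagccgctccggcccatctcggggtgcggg
Nr1d1, chr10:84231763-84232062, reverse strand: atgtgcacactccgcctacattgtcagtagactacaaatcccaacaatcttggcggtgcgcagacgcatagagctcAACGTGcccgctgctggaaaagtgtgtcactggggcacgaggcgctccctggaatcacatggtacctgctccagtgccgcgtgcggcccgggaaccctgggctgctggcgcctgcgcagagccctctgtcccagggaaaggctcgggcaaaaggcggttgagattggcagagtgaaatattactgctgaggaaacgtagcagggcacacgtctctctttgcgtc
Nr1d1, chr10:84229405-84229704, reverse strand: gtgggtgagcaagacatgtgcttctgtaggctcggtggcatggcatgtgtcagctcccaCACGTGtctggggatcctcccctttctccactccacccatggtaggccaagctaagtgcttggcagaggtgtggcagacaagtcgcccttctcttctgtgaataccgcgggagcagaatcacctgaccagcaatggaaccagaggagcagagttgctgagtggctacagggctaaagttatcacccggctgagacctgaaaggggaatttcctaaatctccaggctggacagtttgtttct
Bmal1, chr1:176766078-176766377, forward strand: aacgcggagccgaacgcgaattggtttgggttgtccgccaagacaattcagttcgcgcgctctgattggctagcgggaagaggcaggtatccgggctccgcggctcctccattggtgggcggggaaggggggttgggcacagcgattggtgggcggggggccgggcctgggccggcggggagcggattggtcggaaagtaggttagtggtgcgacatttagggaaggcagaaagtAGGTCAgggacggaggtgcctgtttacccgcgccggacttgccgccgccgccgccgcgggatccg
The Tef window held 1 E-box, beginning at position 53 of its 300 bases. The Nr1d1 windows held the E-box variant at position 77 of the first and an E-box at position 60 of the second. Bmal1 held the ROR element core at position 236. The Dbp window held none of these letters, and no window held the D-box or the cyclic AMP response element. Of 33469 promoter windows of this length, 6.42% held the E-box, 4.83% its variant, 16.2% the ROR element core, 2.24% the D-box and 1.83% the cyclic AMP response element. These matches are descriptions of 300 bases in the reference strain, and elements elsewhere in or near the genes were not searched. G and C made up 59.7% of the Dbp window, 67.7% of the Tef window, 59.0% and 54.7% of the Nr1d1 windows and 66.3% of the Bmal1 window, against a median of 51.7% over all windows.

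Library totals lay between 33598572 and 48398184 counts. Levels are given as CPM, the share of a library's counts scaled to a fixed total, after scaling with TMM factors, which lay between 0.78 and 1.30. On the first principal component of log2 CPM, which held 40.2% of the variance, control 2 stood at 176 and irradiated 4 at 216, and the other libraries lay from -52.9 to 34.2. Results are also given without these libraries and irradiated 1, which was set aside with them because earlier results of these data showed many genes high in it. These are bulk tissue samples, in which fewer cells of a type and less RNA per cell cannot be told apart.

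Dbp showed the widest range of the 3 outputs. In the 6 control libraries, in order of replicate number, it stood at 125, 59.9, 106, 118, 175 and 263 CPM. The irradiated libraries had 84.2, 30.6, 64.0, 30.2, 22.2 and 12.1 CPM. The lowest control, control 2, lay below irradiated 1 and 3, while the other 4 irradiated libraries lay below every control. With the formula, Dbp stood at 12.4, 6.18, 11.6, 12.1, 5.38 and 14.9 CPM. All 6 of these were below every control library, and 3 of them were below the lowest irradiated library, irradiated 6. Group means were 141 ± 70.1, 40.5 ± 27.6 and 10.4 ± 3.79 CPM (SD, n = 6 each). In mRatBN7.2 the gene spans 96175440 to 96180745 of chromosome 1 (forward strand), in 3 exonic blocks of 2858 bases in all, and its raw counts ran from 185 to 8403.

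Tef, the relative of Dbp, had the same order of group means over a smaller range. Control libraries held 97.5, 43.7, 97.1, 92.0, 102 and 144 CPM. In irradiated libraries the values were 84.0, 36.7, 64.5, 24.6, 27.0 and 27.9 CPM. As for Dbp, irradiated 1 and 3 were the high libraries of their group and control 2 the low library of its own. With the formula Tef stood at 37.3, 19.3, 26.1, 20.3, 25.4 and 32.0 CPM, all below the lowest control. Only 2 of these 6 lay below the lowest irradiated library, so those groups overlapped. The means were 96.0 ± 31.8, 44.1 ± 24.5 and 26.7 ± 6.89 CPM (SD, n = 6 each). Tef spans 113317283 to 113341783 of chromosome 7 (forward strand), in 5 exonic blocks of 4361 bases.

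Nr1d1 overlapped between all pairs of groups. Controls had 97.8, 27.7, 64.9, 82.1, 108 and 123 CPM. The irradiated libraries had 80.2, 58.5, 124, 9.87, 30.7 and 44.1 CPM, which takes in both the highest value of all 18 libraries, in irradiated 3, and the lowest, in irradiated 4. This group therefore spanned a 12.5-fold range. With the formula the values were 26.2, 41.3, 49.7, 32.5, 17.97 and 56.6 CPM, of which 2 lay below control 2 and the other 4 between control 2 and the next control. Means were 84.0 ± 34.3, 57.9 ± 40.2 and 37.4 ± 14.6 CPM (SD, n = 6 each). Nr1d1 spans 83728318 to 83735705 of chromosome 10 (reverse strand), in 8 exonic blocks. Of its 3430 exonic bases, 1094 (31.9%) are shared with the exons of ENSRNOG00000009066 on the forward strand. In the RefSeq gene table the gene that overlaps Nr1d1 is Thra, which encodes thyroid hormone receptor alpha. Counting used no strand and set no option to assign a read to both genes. Reads in the shared bases may therefore have been left out, so the Nr1d1 level is uncertain and may be too low.

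Bmal1 ran the other way. Control libraries held 23.9, 13.8, 25.9, 15.6, 14.9 and 12.4 CPM, and irradiated libraries held 26.1, 43.4, 46.2, 16.2, 48.9 and 52.7 CPM. Irradiated 4 was the only irradiated library inside the control range. With the formula Bmal1 stood at 71.9, 82.8, 57.7, 83.2, 86.2 and 104 CPM, above every library of the other groups. Bmal1 too was chosen with these results known, and how many other genes lay above in this way was not counted. In irradiated 4, Tef, Nr1d1 and Bmal1 were each the lowest of the group. Control 2 was the lowest control for all 3 outputs and the second lowest for Bmal1.

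**Figure D1:**
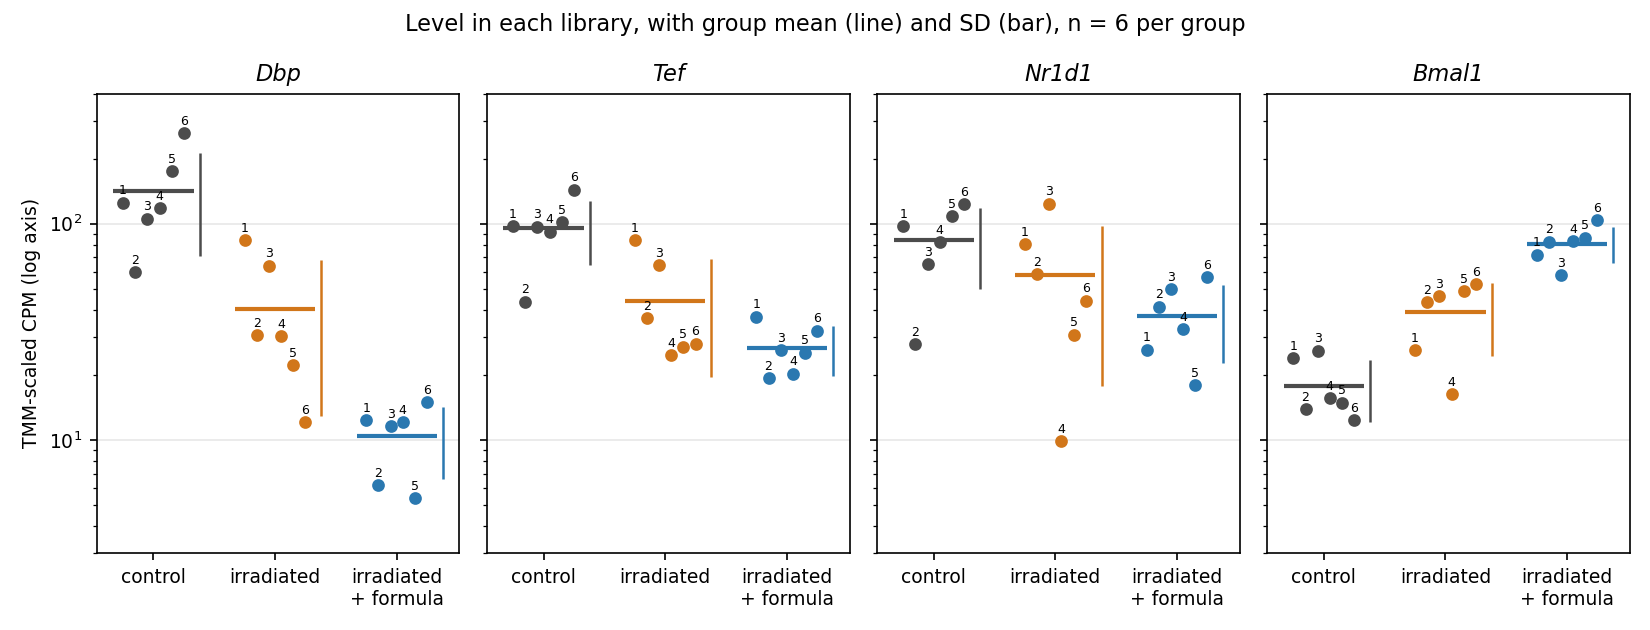
Level of Dbp, Tef, Nr1d1 and Bmal1 in each of 18 libraries, as TMM-scaled CPM on a log axis, by group; numbers at the points are replicate numbers, lines are group means and bars show the SD (n = 6). Dbp and Tef with the formula lie below all control libraries, Nr1d1 overlaps between groups, and Bmal1 with the formula lies above all other libraries.

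Between irradiated and control libraries, the comparison that asks what irradiation changed, the fitted levels of all 3 outputs were lower after irradiation. The log2 fold change of Dbp was -1.80 (SE 0.44, 95% interval -2.72 to -0.88). For Tef it was -1.12 (SE 0.32, -1.797 to -0.45), and for Nr1d1 -0.54 (SE 0.46, -1.51 to 0.43). That of Bmal1 was 1.13 (SE 0.27, 0.57 to 1.69). The interval of Nr1d1 took in values on both sides of 0. No output was among the calls of edgeR's quasi-likelihood test at an adjusted p below 0.05, where 0 of 16593 genes (0%) were called, 321 had an unadjusted p below 0.05, and DESeq2 and limma-voom also called 0. None of the 3 had all irradiated libraries below all controls, as 1 of the 16593 genes (0.00603%) did. Since the outputs were chosen with all 3 comparisons known, no count of calls or of groups without overlap bears on them as evidence. The median log2 fold change was -1.12 over the 3 outputs and 0.01 over all genes tested. Without irradiated 3 the Nr1d1 value was -0.91, and without irradiated 4 it was -0.32, the lowest and highest values with a single library left out. Leaving out control 2, irradiated 1 and irradiated 4 gave -2.24 for Dbp, -1.40 for Tef and -0.52 for Nr1d1. For Dbp and Tef, control 2 was the lowest control and irradiated 1 the highest irradiated library. Leaving out these 2 widens their differences whatever the reason for it.

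Between irradiated plus formula and irradiated libraries, the comparison of the treatment, the outputs were again lower in the treated group. Dbp had a log2 fold change of -1.96 (SE 0.44, 95% interval -2.89 to -1.03), about as large as that between irradiated and control. Tef had -0.72 (SE 0.32, -1.40 to -0.05) and Nr1d1 -0.63 (SE 0.46, -1.60 to 0.34). Bmal1 had 1.06 (SE 0.27, 0.50 to 1.62). edgeR called 0 of 16593 genes (0%), with 928 at an unadjusted p below 0.05, limma-voom called 0, and DESeq2 called 12, Dbp among them. No output had all formula libraries below all irradiated libraries, as 18 genes (0.108%) did. The median over the outputs was -0.72, against -0.02 over all genes. The Tef value moved to -0.44 (SE 0.29) without irradiated 1, and was also -0.44 (SE 0.26) with limma-voom. The Nr1d1 value moved to -0.26 without irradiated 3 and to -0.85 without irradiated 4. Leaving out control 2, irradiated 1 and irradiated 4 gave -1.63 for Dbp, -0.56 for Tef and -0.79 for Nr1d1. This comparison and the one before share the irradiated libraries.

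Between irradiated plus formula and control libraries the differences were the widest. Fitted levels of Dbp were 13.5 times lower with the formula (log2 fold change -3.76, SE 0.47, 95% interval -4.76 to -2.76). Those of Tef were 3.59 times lower (-1.85, SE 0.33, -2.53 to -1.16) and those of Nr1d1 2.25 times lower (-1.17, SE 0.47, -2.15 to -0.19). Bmal1 was 4.56 times higher (2.19, SE 0.27, 1.61 to 2.77). Of the outputs, 1 of 3, Dbp, was called by edgeR, where 2 of 16593 genes (0.0121%) were called, the other being Bmal1. DESeq2 called 47 genes, Dbp, Tef and Bmal1 among them, and limma-voom called 499, among them all 3 outputs and Bmal1. The 2 outputs without overlap, Dbp and Tef, compare with 57 of all genes (0.344%) that had every formula library below every control. The median log2 fold change was -1.85 over the outputs and -0.07 over all genes. Without control 2, irradiated 1 and irradiated 4 the values were -3.87 for Dbp, -1.96 for Tef and -1.32 for Nr1d1. Control 2 was the lowest control for all 3 outputs, so leaving it out widens these differences.

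**Figure D2:**
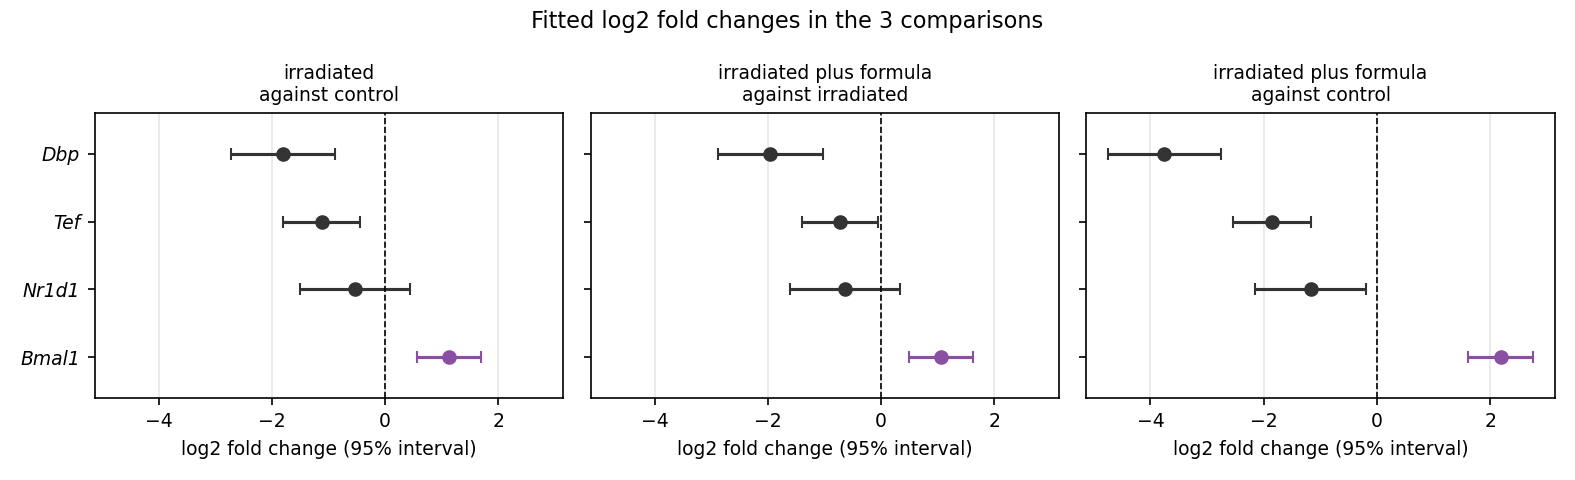
Fitted log2 fold changes of Dbp, Tef, Nr1d1 and Bmal1 in the 3 comparisons, as points with approximate 95% intervals; negative values are lower in the first-named group. The 3 outputs lie below 0 and Bmal1 above 0 in every panel, with Dbp farthest from 0 and the Nr1d1 interval crossing 0 in the first 2.

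Levels were next set against each other within each library, per kilobase (kb) of exon, so that genes of unlike length could be compared. In control libraries the order of mean levels was Dbp at 49.4 ± 24.5, Nr1d1 at 24.5 ± 9.99, Tef at 22.01 ± 7.30 and Bmal1 at 5.46 ± 1.75 CPM per kb (SD, n = 6). Nr1d1 and Tef, neighbours in this order, differed by less than their spread, and Dbp was above both in 6 of 6 libraries. In irradiated libraries the means were closer together, with 16.9 ± 11.7 for Nr1d1, 14.2 ± 9.66 for Dbp, 12.0 ± 4.44 for Bmal1 and 10.1 ± 5.62 CPM per kb for Tef (SD, n = 6), and no neighbours differed beyond their spread. With the formula the order was Bmal1 at 24.9 ± 4.75, Nr1d1 at 10.9 ± 4.25, Tef at 6.12 ± 1.58 and Dbp at 3.65 ± 1.33 CPM per kb (SD, n = 6). Dbp thus went from the most abundant of the 4 transcripts in every control library to the least abundant in every formula library. If no read in the shared exonic bases of Nr1d1 was counted, its level per kb would be 1.47 times as high. On that assumption, with all its counts set over its remaining 2336 bases, the control mean of Nr1d1 would be 36.0 ± 14.7 CPM per kb. Nr1d1 would then stand above Tef in 6 of 6 control libraries, against 4 of 6 over its full length.

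The ratio of an output to Bmal1 in the same library does not depend on the scaling between libraries. For Dbp the log2 ratio per kb ran from 2.21 to 4.59 in controls, from -1.94 to 1.88 after irradiation alone and from -3.82 to -2.13 with the formula. The 3 groups did not overlap, which was not so for the Dbp level alone. As linear values, Dbp was 4.64 to 24.1 times Bmal1 in controls and 0.071 to 0.23 times Bmal1 with the formula. For Tef the log2 ratio ran from 1.23 to 3.11 in controls, from -1.34 to 1.26 after irradiation alone and from -2.52 to -1.37 with the formula. Control and irradiated libraries overlapped narrowly for Tef, and irradiated and formula libraries were separated by a gap far smaller than the spread in either group. For Nr1d1 it ran from 0.92 to 3.24, from -0.80 to 1.54 and from -2.34 to -0.29 in the same order of groups, with overlap between neighbouring groups and none between control and formula. Each output exceeded Bmal1 in 6 of 6 control libraries, in 3 of 6 irradiated libraries and in 0 of 6 formula libraries. If no read in its shared exonic bases was counted, Nr1d1 would exceed Bmal1 in 4 irradiated libraries and in 1 formula library. These ratios combine genes that were chosen for their opposite differences, and their separation is a description.

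The 2 members of the PAR bZIP family did not keep a fixed ratio. The log2 ratio of Dbp to Tef per kb had a mean of 1.10 ± 0.28 in controls, 0.36 ± 0.52 after irradiation alone and -0.80 ± 0.52 with the formula (SD, n = 6). Dbp was 1.66 to 2.79 times Tef in the controls and 0.32 to 0.91 times Tef with the formula, without overlap, and the irradiated libraries lay between 0.66 and 1.87. Dbp was selected on its differences between these groups, so this separation is a description. How often other pairs of genes separate in this way was not tested. The log2 ratio of Nr1d1 to Tef changed less against its spread, with 0.09 ± 0.30, 0.53 ± 0.82 and 0.77 ± 0.73 in the same order (SD, n = 6).

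**Figure D3:**
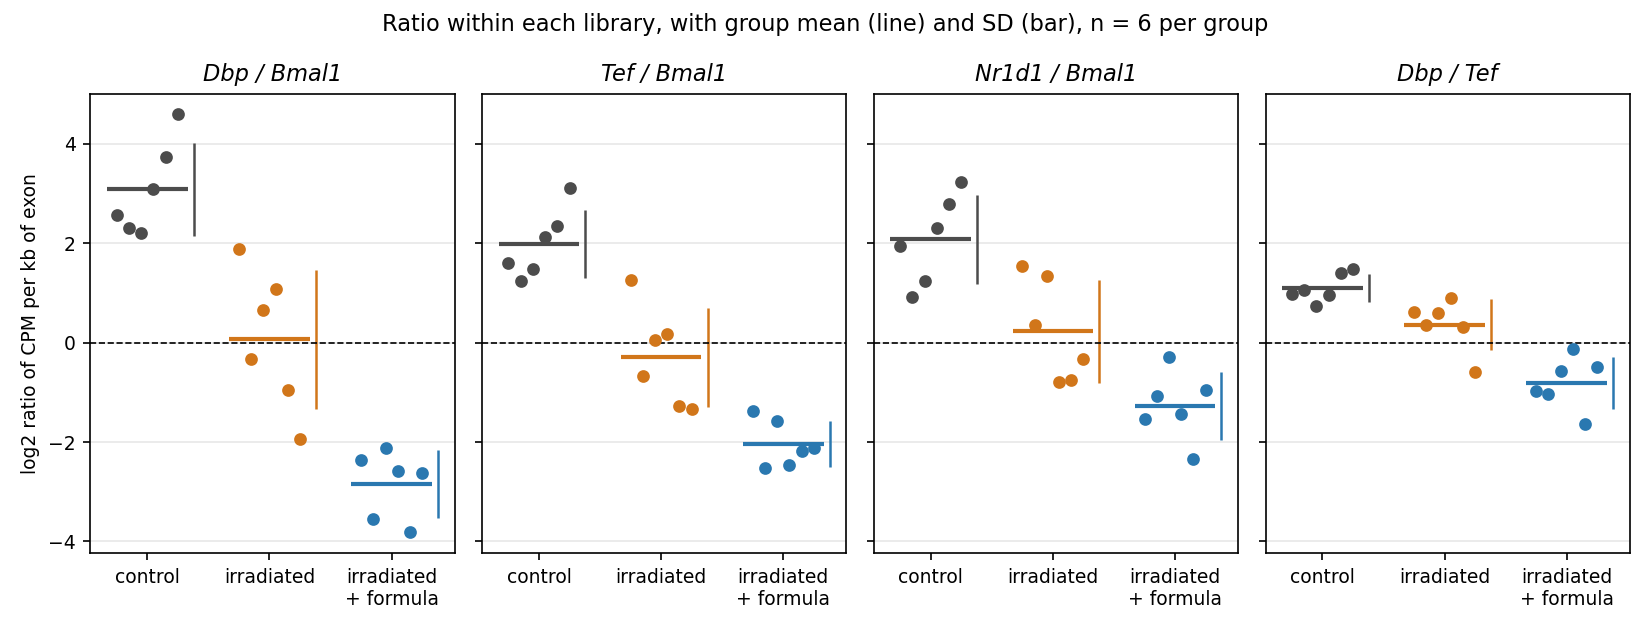
Log2 ratio of Dbp, Tef and Nr1d1 to Bmal1, and of Dbp to Tef, in each of 18 libraries by group, from CPM per kb of exon; lines are group means, bars show the SD (n = 6) and the dashed line marks equal levels. With Nr1d1 over its full exonic length, every control library lies above the dashed line and every formula library below it in all 4 panels. Irradiated libraries lie on both sides.

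Whether the outputs vary together among libraries of the same group is a question that the choice by group differences does not settle. Deviations of log2 CPM from the group mean were therefore compared over the 18 libraries, in 6 pairs formed by the outputs and Bmal1, with two-sided permutation tests within groups. Dbp and Tef deviated together, with a Pearson r of 0.83 (permutation p = 0.00025, adjusted p = 0.0015 over 6 pairs) and a Spearman rho of 0.85 (permutation p = 9e-05, adjusted p = 0.00054). Both were on the same side of their group means in 14 of 18 libraries. The tests of all 6 pairs set r against 0. How often other pairs of genes reach such an r was not tested, so it does not set these genes apart. Without irradiated 1 and irradiated 6, the libraries farthest from the median of Dbp, r was 0.80, and without control 2, irradiated 1 and irradiated 4 it was 0.78 (permutation adjusted p = 0.032).

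Tef and Nr1d1 had an r of 0.72 (permutation p = 0.0038, adjusted p = 0.011) and a rho of 0.74 (permutation p = 0.0021, adjusted p = 0.0041), also on the same side in 14 of 18 libraries. This relation rested in part on single libraries: r was 0.63 without control 2 and irradiated 1, which lay farthest from the median of Tef. Without control 2 alone it was also 0.63 (permutation adjusted p = 0.141), and without control 2, irradiated 1 and irradiated 4 it was 0.56 (permutation adjusted p = 0.149). Scaling to library totals alone gave 0.65 (permutation adjusted p = 0.063). Dbp and Nr1d1 had an r of 0.60 (permutation p = 0.025, adjusted p = 0.051), just short of the threshold, and a rho of 0.74 (permutation p = 0.0018, adjusted p = 0.0041). Their r was 0.67 without irradiated 1 and 6, the libraries farthest from the median of Dbp. With 1 library left out it ran from 0.52 without control 2 (permutation adjusted p = 0.213) to 0.76 without irradiated 4 (permutation adjusted p = 0.0043), and it was 0.54 without irradiated 3 (permutation adjusted p = 0.133).

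No relation of an output to Bmal1 within groups passed the test. Pearson r with Bmal1 was -0.28 for Dbp (permutation p = 0.366, adjusted p = 0.440), 0.01 for Tef (permutation p = 0.970, adjusted p = 0.970) and 0.37 for Nr1d1 (permutation p = 0.252, adjusted p = 0.378). Spearman rho was -0.32 (permutation p = 0.247, adjusted p = 0.371), -0.04 (permutation p = 0.872, adjusted p = 0.915) and -0.03 (permutation p = 0.915, adjusted p = 0.915) in the same order. Without the 2 libraries farthest from the median of each output, r was -0.06, 0.08 and -0.22. These 18 libraries do not show that the levels are unrelated. In control libraries alone the outputs lay close to one another in rank, with an r of 0.93 for Dbp and Tef (exact permutation p = 0.0042, adjusted p = 0.038 over 18 tests), 0.92 for Dbp and Nr1d1 (exact p = 0.0014, adjusted p = 0.025) and 0.95 for Tef and Nr1d1 (exact p = 0.0069, adjusted p = 0.042), with rho of 0.94, 1.00 and 0.94 (exact p = 0.017, 0.0028 and 0.017, adjusted p = 0.075, 0.050 and 0.075). Without control 2 and control 6, the libraries farthest from the median for Dbp, the first 2 of these were 0.72 and 0.87 over 4 libraries, and the third was 0.50 without the libraries farthest for Tef. In irradiated libraries the same pairs had an r of 0.88, 0.48 and 0.79 (exact permutation p = 0.032, 0.332 and 0.044, adjusted p = 0.144, 0.664 and 0.160) and a rho of 0.77, 0.71 and 0.94 (exact p = 0.103, 0.136 and 0.017, adjusted p = 0.370, 0.408 and 0.075). With the formula they had an r of 0.51, 0.56 and -0.03 (exact permutation p = 0.274, 0.261 and 0.95, adjusted p = 0.616, 0.616 and 0.989) and a rho of 0.66, 0.49 and 0.09 (exact p = 0.175, 0.356 and 0.919, adjusted p = 0.450, 0.711 and 1.00), and whether these differ from the control values was not tested.

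**Figure D4:**
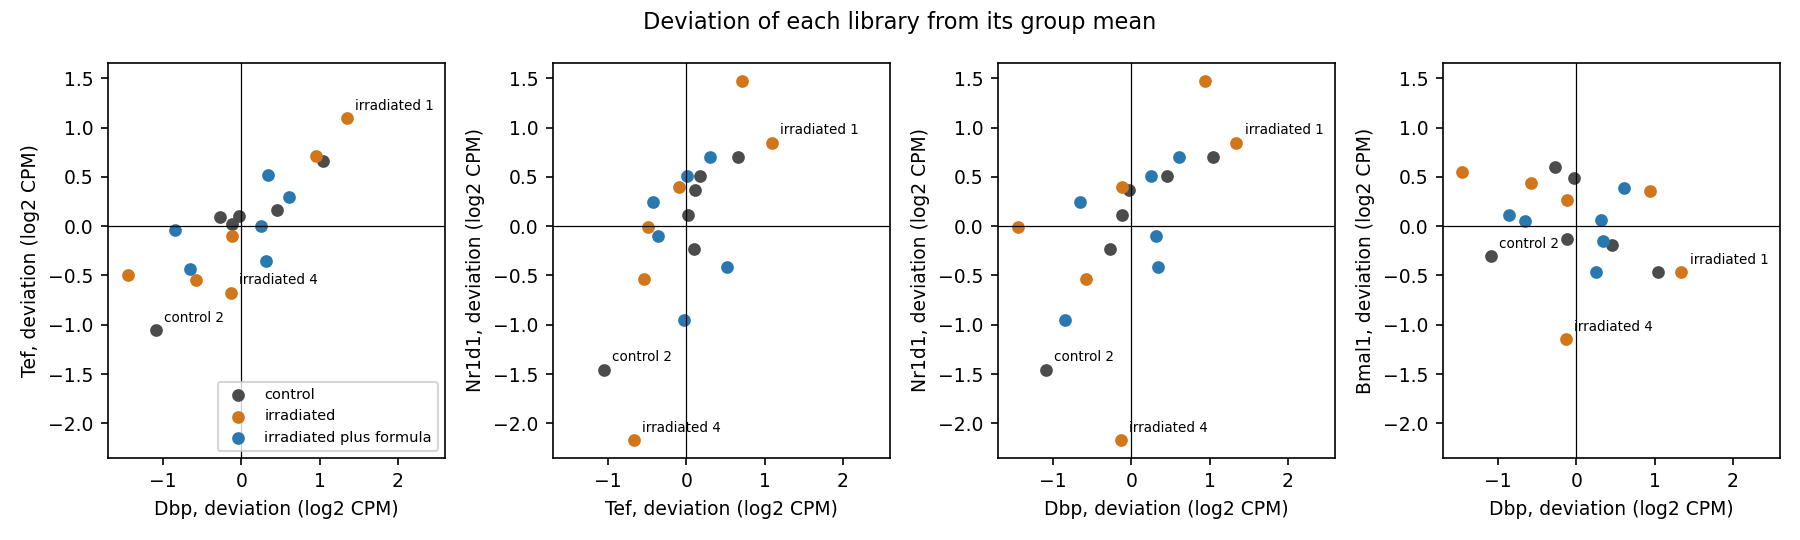
Deviation of each library from its group mean, in log2 CPM, for Dbp against Tef, Tef against Nr1d1, Dbp against Nr1d1 and Dbp against Bmal1, coloured by group, with 3 libraries named. Points rise together for the pairs of outputs, with r of 0.83, 0.72 and 0.60, and not for Dbp and Bmal1, with r of -0.28.

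The spread among libraries of a group was above the gene median for Dbp and Nr1d1 and close to it for Tef. The SD of log2 CPM within groups was 0.80 for Dbp, 0.58 for Tef, 0.93 for Nr1d1 and 0.49 for Bmal1, against a median of 0.54 over the 14319 genes whose mean reached 1 CPM. Of those genes, 68.9% had a smaller SD than Dbp, 53.4% than Tef and 76.2% than Nr1d1. By group, the SD of log2 CPM in control, irradiated and irradiated plus formula libraries was 0.72, 1.02 and 0.60 for Dbp, 0.57, 0.74 and 0.37 for Tef, and 0.78, 1.27 and 0.62 for Nr1d1. Several of these rested on single libraries. Without irradiated 4 the irradiated SD of Nr1d1 was 0.77, and without irradiated 1 that of Tef was 0.56, each no larger than in controls. Without control 2 the control SD was 0.26 for Tef and 0.36 for Nr1d1, each below that with the formula. Differences between these SDs were not tested.

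Other genes were ranked by how closely they followed the outputs, as the Pearson r with the mean of the standardised log2 CPM of Dbp, Tef and Nr1d1 over 18 libraries, among the same 14319 genes. These r values are descriptions over libraries that also differ by group. ENSRNOG00000042717 (chromosome 2, 183419819 to 183423313, reverse strand) was the most alike with an r of 0.96. Its level was 15.5 ± 12.7 CPM in controls, 2.65 ± 2.87 CPM after irradiation alone and 0.91 ± 0.46 CPM with the formula (SD, n = 6). ENSRNOG00000018413 (chromosome 5, 161459533 to 161495607, reverse strand) came next with an r of 0.93, at 50.8 ± 16.2, 20.6 ± 10.1 and 13.1 ± 4.02 CPM (SD, n = 6). At the other end, ENSRNOG00000010116 (chromosome 8, 76199099 to 76223983, forward strand) had an r of -0.89 and stood at 18.2 ± 2.52, 23.6 ± 4.89 and 26.1 ± 3.31 CPM (SD, n = 6). ENSRNOG00000016266 (chromosome 1, 117948134 to 117964149, reverse strand) had an r of -0.78 with levels of 12.2 ± 6.78, 16.4 ± 7.33 and 15.3 ± 2.78 CPM (SD, n = 6). With DESeq2 size factors 3 of these 4 genes were named again, and ENSRNOG00000016266, with an r of -0.77, was not among the 2 lowest. Bmal1 itself had an r of -0.67 over the 18 libraries and 0.04 over deviations from group means. Over those deviations ENSRNOG00000042717 was again the most alike, with an r of 0.93, and ENSRNOG00000016266 had -0.84.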

How the data were processed

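Raw gene counts of 18 libraries were deposited in a single table, made by the authors with featureCounts 2.1.1 on mRatBN7.2 with Ensembl release 110, per the file headers. The submitters' processing notes also list FastQC, fastp, STAR and SAMtools without versions. The command in the file headers asked for both ends to align and dropped chimeric pairs. It set no option for counting pairs, strand or reads in more than 1 gene. Reads rather than pairs may therefore be counted, in which case counting error would be larger than the counts imply. The table's exon lengths were used for levels per kb. No deposited column of per-sample values was left unused (0 columns).

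Counts were fitted in R 4.3.3 with edgeR 4.0.16 (filterByExpr, TMM, quasi-likelihood test, all 18 libraries, no covariates), with Benjamini-Hochberg adjustment over 16593 genes. SEs are the absolute log2 fold change over the square root of F, and intervals on them are approximate. Log2 CPM used a prior count of 2, and correlations 100000 permutations within groups. On simulated data, edgeR was checked for planted fold changes between irradiated and control, and the correlations only for their mean r. The permutation test was not run on simulated data. Alternatives were other scalings, no filter, DESeq2 1.42.0, limma-voom (limma 3.58.1) with quality weights, 12 libraries, a replicate term and libraries left out. Members and lists were chosen with earlier results of these data known. Named genes were the outputs, Bmal1 and the 2 genes most and 2 least like the outputs over 18 libraries; over deviations the rule gave 2 further IDs that are not printed. Lists of other clock genes and of cell type markers needed symbols and were not analysed here. The p-values take libraries as their units, which the labels do not state to be separate animals.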

Additional observations from a re-analysis of the deposited data

Results flagged for a closer look

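No library of a group of 6 stood apart from the others by Dixon's test in 30 checks of the CPM of Dbp, Tef, Nr1d1 and Bmal1 and of their log2 ratios, where chance gives about 1.5. The ratios share values with the levels. Log2 CPM, on which the spreads and correlations rest, was not checked this way. On that scale Tef stood at 5.45 in control 2 and from 6.52 to 7.17 in the other controls.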

How the results depend on the processing

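Dbp, Tef, Nr1d1 and Bmal1 kept the sign of their fold change in all 3 comparisons under all 26 alternatives. Since they were chosen with these contrasts known, neither their direction nor their passing the threshold shows stability. Between irradiated plus formula and control the log2 fold change ran from -3.91 to -3.48 for Dbp, -1.99 to -1.69 for Tef and -1.49 to -1.03 for Nr1d1. Against 2 genes called in that comparison, DESeq2 gave 47, limma-voom 499, the 12 libraries alone 6, and leaving out control 2, irradiated 1 and irradiated 4 together 7. Leaving out 1 library gave 2 to 5, with 5 without control 2 or irradiated 4 and 4 without irradiated 1. Between irradiated plus formula and irradiated, DESeq2 gave 12 against 0, Dbp among them, and the cause was not tested. Between irradiated plus formula and control, Tef passed the threshold under 6 of the 26 alternatives and Nr1d1 under 1, limma-voom. With the replicate block 1 gene was called, and the log2 fold change was -3.79 for Dbp and 2.20 for Bmal1, which was no longer called. The replicate numbers pair no animals in the labels, and 5 of 18 same-numbered pairs had a correlation over 0.1.

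Leaving out 1 library gave within-group r from 0.77 to 0.87 for Dbp and Tef, 0.63 to 0.78 for Tef and Nr1d1, 0.52 to 0.76 for Dbp and Nr1d1, -0.42 to -0.15 for Dbp and Bmal1, -0.29 to 0.19 for Tef and Bmal1 and -0.12 to 0.47 for Nr1d1 and Bmal1. Dbp and Nr1d1 passed in 4 of 18 such fits, without irradiated 4, irradiated 6, or irradiated plus formula 1 or 2, and at 0.73 without the 3 libraries named above. Tef and Nr1d1 no longer passed without control 2, without the 3 libraries (0.56), or with library totals (0.65). The r of Tef and Bmal1, 0.01, turned to -0.030 with DESeq2 size factors, -0.077 with library totals and -0.26 without the 3 libraries, and that of Nr1d1 and Bmal1, 0.37, to -0.26 without them. Setting all Nr1d1 counts over its own exonic bases was a choice made after seeing the data and assumes that no shared read was counted. The mean log2 ratio of Nr1d1 in controls would then be -0.46 to Dbp against -1.01, and 0.65 to Tef against 0.09.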
